A study of Mus musculus with 6 samples.

Results

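Macrophages and megakaryocytes were rare among the cells of the mouse cardiogenic region at embryonic day E10.5. Of 53362 cell barcodes, 34496 had at least 2500 detected genes, at most 10% mitochondrial UMIs (molecules, each counted once) and under 20% globin UMIs. A barcode among them was put on the macrophage side when Csf1r, C1qa and C1qb together had at least 5 UMIs, and on the megakaryocyte side when Itga2b, Gp9 and Gp1bb together had at least 5. The rule found 51 macrophage-side and 72 megakaryocyte-side barcodes, 123 in all, and no barcode met both conditions. The members were thus chosen by measured values, the UMIs of these 6 genes. The other 34373 barcodes within the limits served as the comparison. The study took wild-type C57BL/6 embryos from timed matings of normoglycemic males with females that had received either vehicle and stayed normoglycemic or streptozotocin (STZ), which makes them hyperglycemic. There were 3 samples of each kind, described as replicate embryos, the region also held non-cardiac mesoderm, ectoderm and endoderm, and the single-cell RNA libraries used 10x Genomics 3′ chemistry. The deposited matrix joins 6 libraries, told apart by a number at the end of each barcode, and no file used here ties that number to a sample. Vehicle and STZ embryos were therefore not compared here, the 6 libraries are described one by one under the numbers 1 to 6. The sides were chosen from the same counts on which they are compared, so none of the differences below has a test.

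Macrophages are phagocytes that clear dying cells and sense their surroundings through pattern, Fc and chemokine receptors. In the mouse embryo the first of them descend from yolk sac progenitors, depend on the growth factor receptor Csf1r and the transcription factor Spi1 (PU.1), and make the complement starter C1q. Megakaryocytes make platelets: under the control of Gata1, Fli1 and Runx1, they leave the dividing state, fill granules with proteins such as Pf4 and put the von Willebrand factor receptor (Gp1ba, Gp1bb, Gp9, Gp5) and the fibrinogen receptor (Itga2b, Itgb3) on their surface. Itga2b (CD41) is also made by early blood progenitors. Levels are given as CPM, the UMIs of a gene per 1000000 UMIs summed over a set of barcodes. These 3′ counts are not divided by gene length, so they are compared between sets and not between genes.

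The sequences before the transcription starts of 6 genes are shown first: 4 of the 6 rule genes (C1qb, Itga2b, Gp9 and Gp1bb), and C1qc and Pf4, along which the members of each side are divided below. Those of Csf1r and C1qa are not shown. Each is the 250 bases before the start, from RefSeq on GRCm38.p6, written 5′ to 3′ on the gene's strand. Capitals mark GATAA, the core letters of GATA sites, and GGAAG, core letters of ETS sites such as those of Spi1 and Fli1, on either strand. The 2 motifs overlapped in none of the sequences.
Itga2b (chr11:102469884-102470133, minus strand): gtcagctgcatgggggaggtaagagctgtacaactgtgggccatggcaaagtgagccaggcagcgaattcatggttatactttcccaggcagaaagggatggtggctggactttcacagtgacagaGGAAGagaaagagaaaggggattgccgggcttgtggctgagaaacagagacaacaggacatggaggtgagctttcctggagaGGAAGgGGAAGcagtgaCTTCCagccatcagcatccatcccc
Gp9 (chr6:87777820-87778069, plus strand): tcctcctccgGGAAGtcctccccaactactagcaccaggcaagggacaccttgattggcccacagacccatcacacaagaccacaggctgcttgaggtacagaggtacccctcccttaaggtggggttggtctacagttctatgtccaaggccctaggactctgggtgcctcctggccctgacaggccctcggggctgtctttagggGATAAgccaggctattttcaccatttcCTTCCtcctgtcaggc
Gp1bb (chr16:18622404-18622653, minus strand): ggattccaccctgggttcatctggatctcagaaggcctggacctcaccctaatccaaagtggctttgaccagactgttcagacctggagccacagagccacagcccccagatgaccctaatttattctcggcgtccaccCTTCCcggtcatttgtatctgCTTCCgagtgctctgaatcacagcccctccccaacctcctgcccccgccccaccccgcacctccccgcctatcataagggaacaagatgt
Pf4 (chr5:90772185-90772434, plus strand): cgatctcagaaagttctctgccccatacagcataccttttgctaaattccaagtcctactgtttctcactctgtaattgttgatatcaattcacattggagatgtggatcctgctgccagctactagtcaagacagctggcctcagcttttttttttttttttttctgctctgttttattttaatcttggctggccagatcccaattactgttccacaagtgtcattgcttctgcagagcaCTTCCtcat
C1qb (chr4:136886201-136886450, minus strand): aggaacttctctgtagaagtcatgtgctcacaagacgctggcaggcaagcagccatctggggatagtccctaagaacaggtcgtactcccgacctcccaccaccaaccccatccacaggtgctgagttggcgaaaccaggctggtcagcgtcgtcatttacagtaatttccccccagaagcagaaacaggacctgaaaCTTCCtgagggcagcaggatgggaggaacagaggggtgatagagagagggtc
C1qc (chr4:136892915-136893164, minus strand): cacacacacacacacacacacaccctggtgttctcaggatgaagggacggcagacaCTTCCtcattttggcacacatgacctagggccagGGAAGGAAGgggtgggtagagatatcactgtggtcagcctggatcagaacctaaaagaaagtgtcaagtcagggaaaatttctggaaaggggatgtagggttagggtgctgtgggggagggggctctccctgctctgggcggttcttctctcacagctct
GGAAG was found in each of the 6 shown: 4 times for Itga2b, 2 times each for Gp9 and Gp1bb, once each for Pf4 and C1qb, and 3 times for C1qc. GATAA was found once, in Gp9. Over all 32851 promoters of that length, 64.1% held GGAAG and 22.6% held GATAA. Over the 10364 promoters of genes past the 10 CPM limit in any comparison the shares were 68.6% and 14.8%. For the genes at least 4-fold higher on a side than in the other barcodes (defined below), GGAAG stood in 73.7% of 514 promoters for the macrophage side and 71.0% of 589 for the megakaryocyte side. GATAA stood in 21.4% and 21.6% of them, below the share of all promoters and above that of the genes past the limit. The table matched 391 of 509 and 430 of 549 genes.

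The 6 libraries held 7533 to 10000 barcodes and 200462921 to 248426458 UMIs each. The median barcode had 68288 UMIs on the macrophage side, 45358 on the megakaryocyte side and 31989 among the others. Within libraries the macrophage side was 1.62 to 3.08 times as deep as the other barcodes, and the megakaryocyte side 1.32 to 1.83 times. A score of likeness to simulated doublets was above its limit for 39 of 51 macrophage-side barcodes (76.5%) and 38 of 72 megakaryocyte-side barcodes (52.8%), against 7.15% of the others. Without these barcodes, 9 of the 168 named calls between the sides were lost. Of the 336 named calls against the other barcodes, 50 were lost and 2 (Hba-a1 and Hba-x on the macrophage side) changed direction. List levels without them are given beside some of the results. The barcode sequence also occurred in another library for 21 macrophage-side barcodes (41.2%) and 13 megakaryocyte-side barcodes (18.1%), against 7.06% of the others. The copies of macrophage-side barcodes had 491 to 1114 UMIs and those of megakaryocyte-side barcodes 442 to 917. Each had at least 82.0 times fewer UMIs than the member, and no copy passed the limits.

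Macrophage-side barcodes made up 0.148% of the barcodes within the limits (exact 95% binomial interval 0.110 to 0.194%). Their number in libraries 1 to 6 was 3, 8, 8, 10, 13 and 9, and their share ran from 0.0486% in library 1 (0.0100 to 0.142%) to 0.188% in library 5 (0.100 to 0.322%). Megakaryocyte-side barcodes made up 0.209% (0.163 to 0.263%). They numbered 7, 7, 14, 17, 19 and 8, from 0.113% in library 1 (0.0456 to 0.234%) to 0.314% in library 3 (0.172 to 0.526%). Libraries 3, 4 and 5 had the highest megakaryocyte-side shares and libraries 1, 2 and 6 the lowest. The intervals of all 6 overlapped on each side, which does not show that the shares are equal, and no test compared them. These intervals cover counting error only. Megakaryocyte-side barcodes were 58.5% of the members (49.3 to 67.3%).

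**Figure D1:**
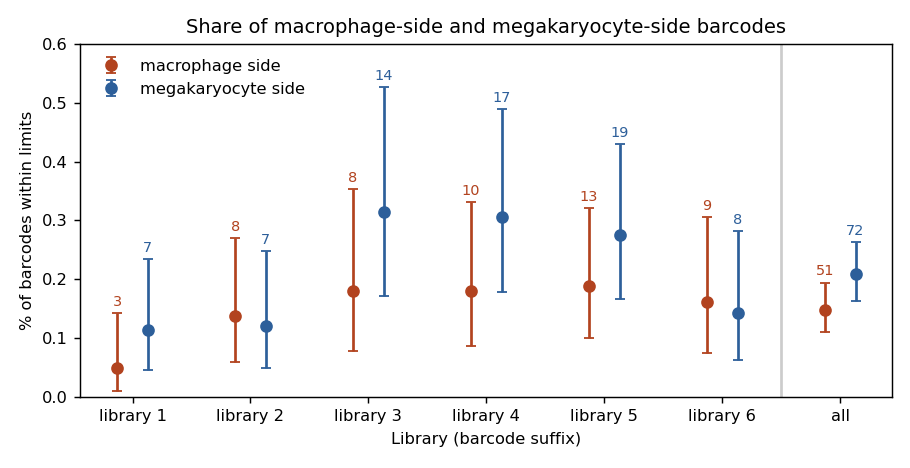
Share of macrophage-side (red) and megakaryocyte-side (blue) barcodes in percent of the barcodes within the limits, for each library and for all 6. Points are shares, bars are exact 95% binomial intervals and the numbers above them count barcodes. The intervals of the 6 libraries overlap on both sides, which does not show that the shares are equal.

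The rule genes themselves chose the members, so their levels are given as a description. On the macrophage side the 3 genes summed to 5 to 233 UMIs per barcode (median 74), with Csf1r in 50, C1qb in 44 and C1qa in 38 of 51 barcodes. Most lay far above the threshold: 43 had 12 or more UMIs. The 4 barcodes at 5 UMIs had a median of 79.5 UMIs of 3 myeloid genes outside the rule (Fcer1g, Tyrobp, Laptm5), and the 10 barcodes just outside it, at 4 UMIs, had a median of 0. On the megakaryocyte side the sum ran from 5 to 208 UMIs (median 25.5), with Itga2b in all 72 barcodes, Gp9 in 68 and Gp1bb in 55. The threshold was less sharp here: the 6 barcodes at 5 UMIs had a median of 1.5 UMIs of Pf4, Treml1 and Rgs18, the 14 just outside at 4 UMIs also had 1.5, and the 50 with 12 or more had 540.5. With a minimum of 3 UMIs in place of 5, the megakaryocyte side grew to 125 barcodes.

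Some members on each side went against its name. On the macrophage side, 7 barcodes passed on Csf1r alone, with no C1qa or C1qb UMI, and held 1183 CPM of Prtn3, a granule protease of immature myeloid cells, and 151 CPM of Mpo (myeloperoxidase), against 296 and 23.8 CPM in the other 44. Mrc1, the mannose receptor, had no UMI in the 7 and 312 CPM in the 44. A barcode of library 3, 1 of these 7, had 5 Csf1r UMIs and no UMI of Tyrobp, Fcer1g or the monocyte and granulocyte list, but 60 of an epithelial list. Its data go against the name macrophage. On the megakaryocyte side, 3 barcodes passed on Itga2b alone, with 5 UMIs each. They had no Pf4 UMI and held 152, 267 and 508 UMIs of a list of 10 endothelial markers (Cdh5, Kdr, Tek, Emcn and others). In the other 69 the median was 15. A further barcode of library 2, with 4 Itga2b, 1 Gp9 and 3 Pf4 UMIs and no Treml1, held 227 endothelial-list UMIs. In library 5, 2 barcodes without Pf4 or Treml1 held 107 and 131 UMIs of the monocyte and granulocyte list, and 18 and 38 of Tyrobp. The data of these 6 barcodes go against the name megakaryocyte. The 6 had at least 100 UMIs of either list, with under 5 of Pf4 for the endothelial list. Other members near them in these values were kept. A barcode of library 1 held 242 endothelial-list UMIs beside 171 of Pf4. In library 3, 1 barcode held 93 monocyte and granulocyte UMIs, 9 of Tyrobp and none of Pf4. A barcode each of libraries 2, 4 and 5, with no Treml1 or Gp1bb, held 19, 31 and 29 of that list and 1, 2 and 0 of Pf4. Without the 1 and the 6 barcodes, chosen after the values were seen, each of the 168 named calls between the sides described below held.

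For all other genes a description by size was used. A gene was called higher on one side when it had at least 10 CPM there, was at least 4-fold above the other set, and kept its direction in each library with at least 10 barcodes of each set compared. Between the 2 sides only libraries 4 and 5 had that many. Of 8772 genes with 10 CPM on a side, 326 (3.72%) were higher on the macrophage side and 515 (5.87%) on the megakaryocyte side. A gene that passed the 10 CPM limit on 1 side alone could be called only in that direction, so such members are counted apart in the lists below. Over all genes, 7119 passed on both sides, of which 60 (0.843%) were called higher on the macrophage side and 115 (1.62%) on the megakaryocyte side. Over all that passed, the median gene differed by 0.02 on the log2 scale. Against the other barcodes, 509 of 9662 genes (5.27%) were higher on the macrophage side and 549 of 9655 (5.69%) on the megakaryocyte side. Without the barcodes that go against their names, the 4 counts were 393, 535, 514 and 582. The 2 sets of genes higher than in the other barcodes shared 191 genes, which is 37.5% of the first and 34.8% of the second, and both rest on the same other barcodes.

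**Figure D2:**
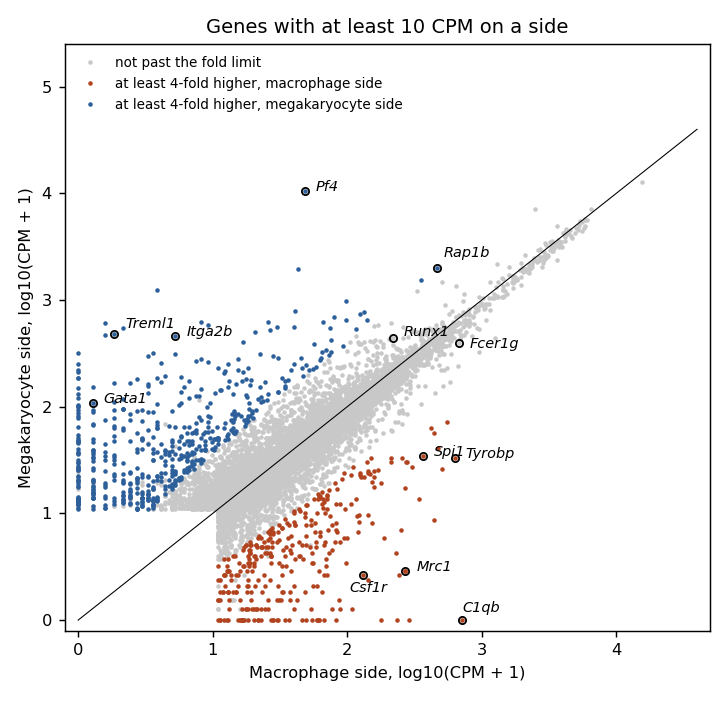
Each point is a gene with at least 10 CPM on a side, by its log10(CPM + 1) on the macrophage side (horizontal) and on the megakaryocyte side (vertical). Red and blue points are the 326 and 515 genes called higher on the macrophage and megakaryocyte side. Pf4, Treml1 and Gata1 lie far above the line of equal level, C1qb, Mrc1 and Tyrobp far below it, and Runx1 and Fcer1g close to it.

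On the macrophage side the transcription factors that direct myeloid cells stood out. Of the 12 factors on that list, 5 were called higher than on the megakaryocyte side and none lower. Spi1 and Cebpb were the 2 called of 6 that passed the 10 CPM limit on both sides, and Maf, Irf5 and Irf8 passed on the macrophage side alone. Spi1, the factor at the head of the myeloid lineage, ran at 269.5 to 536 CPM over the 6 libraries (median 361), against 8.42 to 71.3 on the megakaryocyte side and 0.618 CPM in the other barcodes. Its libraries did not overlap between the sides. Cebpb, which drives myeloid genes, stood at 443 CPM (exact 95% Poisson interval 422 to 466) against 55.9 CPM. Irf8, needed for monocytes and macrophages, stood at 141 against 1.36 CPM, and Maf, a factor of mature macrophages, at 228 against 3.27 CPM. Runx1, which blood lineages share, was at 218 CPM here and 439 CPM on the megakaryocyte side, below the 4-fold limit.

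Of 20 receptors and adaptors with which macrophages read their surroundings, 13 passed the 10 CPM limit on the macrophage side alone and 3 on both sides (Fcgr3, Fcer1g and Tyrobp). Of these 3, 2 were called higher on the macrophage side, and no gene of the list was called lower. Tyrobp (DAP12), the adaptor of many myeloid receptors, ran at 499 to 741 CPM over the 6 libraries (median 636) against 2.81 to 70.2 on the megakaryocyte side. Cx3cr1, the fractalkine receptor, stood at 249.6 CPM in 49 of 51 barcodes against 6.00 CPM. Ptprc (CD45), on the surface of most blood cells, was at 152 CPM here and 7.09 CPM on the megakaryocyte side, where 7 of 72 barcodes had a UMI. The Fc receptors Fcgr1 and Fcgr3 were at 85.8 and 82.0 CPM against 0.545 and 11.2 CPM, Adgre1 (F4/80) at 48.3 CPM in 34 barcodes with none on the megakaryocyte side, and Trem2 at 36.3 against 0.818 CPM. Fcer1g, the gamma chain of Fc receptors and of the platelet collagen receptor, was not called: it stood at 680.1 CPM here and at 397 CPM on the megakaryocyte side, against 1.76 CPM in the other barcodes. Ccr2, the receptor of inflammatory monocytes, was at 2.29 CPM in 7 barcodes.

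Of 8 complement genes outside the rule, 5 passed the 10 CPM limit, each on the macrophage side alone, which fixes their direction. C1qc, the third chain of C1q and no part of the rule, ran at 76.6 to 340.5 CPM over the 6 libraries (median 323) and had no UMI on the megakaryocyte side, where 0 UMIs allow up to 0.818 CPM (3 UMIs). The level in library 1, with 3 barcodes, was the lowest of the 6. The anaphylatoxin receptors C3ar1 and C5ar1 stood at 64.3 and 33.7 CPM and properdin (Cfp) at 36.3 CPM. C3 and C4b had no UMI.

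Of 16 scavenger and clearance genes, 5 passed the limit on the macrophage side alone, and these were the 5 called. None of the 4 that passed on both sides was called. Mrc1 stood at 269.9 against 1.91 CPM, and it divided the barcodes: 31 of 51 had a UMI. Stab1, a scavenger receptor, stood at 47.7 CPM here, Gas6, a bridge between dying cells and their receptors, at 32.6 CPM, and Mertk, one of those receptors, at 11.7 CPM. Endothelium-marker barcodes held 46.9 CPM of Stab1. Other members of the list were scarce: Lyve1 was counted in 7 barcodes, Timd4 in 4, Folr2 in 3 and Cd163 in none.

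Of 20 lysosomal genes, 14 passed the limit on both sides, of which 3 were called higher on the macrophage side and none lower. A further 4 passed on the macrophage side alone. Cathepsin C (Ctsc), which activates granule proteases, stood at 509 against 24.8 CPM, cathepsin B (Ctsb) at 276 against 29.5 CPM, and legumain (Lgmn) at 121 against 7.36 CPM. Cathepsin L (Ctsl) was at 351 CPM here, 106 on the megakaryocyte side and 231 in the other barcodes. The ferritin chains Ftl1 and Fth1 were at 3644 and 2817 CPM, against 2359 and 2050.1 on the megakaryocyte side. Of 12 lipid and iron genes, 3 passed the limit on the macrophage side alone, which fixes their direction, and were called there. Heme oxygenase (Hmox1), which opens the heme ring, was 1 of them (75.8 against 6.82 CPM). Of the 6 past the limit on both sides, 1 was called, Blvrb (biliverdin reductase B). It was higher on the megakaryocyte side (93 CPM in 64 of 72 barcodes, and 35 of 51 barcodes on the macrophage side).

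Of 16 chemokine and cytokine genes, 7 passed the limit, each on the macrophage side alone, which fixes their direction. Tnf turned to a log2 ratio of -0.50 when every barcode was thinned to 5000 UMIs. Ccl3, which attracts leukocytes, ran at 144 to 419 CPM over the 6 libraries (median 186) in 45 barcodes. On the megakaryocyte side, 1 barcode held all of its UMIs. Ccl2 and Ccl4 were concentrated in fewer barcodes, 18 and 17 of 51, and reached 0 in at least 1 library each. Tnf stood at 29.7 CPM in 33 barcodes, Il1b at 7.72 CPM in 6, and Cxcl1 had no UMI. The cells had been released by enzyme at body temperature before capture, and the part of that step in these levels was not tested.

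Genes of immature myeloid cells were high alongside those of macrophages. Of 16 genes on the monocyte and granulocyte list, 4 passed the limit on both sides, and 3 of these (Plac8, Prtn3 and Lyz2) were called higher on the macrophage side. Csf3r passed there alone. Plac8 stood at 475 CPM, Prtn3 at 417 CPM, Lyz2 (lysozyme) at 149 CPM and Csf3r, the receptor of the granulocyte growth factor, at 23.4 CPM. The near-copy Lyz1 had no UMI. The monocyte gene Ly6c2, the neutrophil genes S100a8 and S100a9, and Ctsg, a granule protease of immature myeloid cells as Prtn3 is, had no UMI either. The call of Lyz2 was lost in 4 of 24 alternatives. None of the 7 antigen presentation genes of MHC class II reached 10 CPM, and the highest, H2-Ab1, had 6.29 CPM. Tmem119 and Sall1, which mark microglia, were at 2.86 and 0.572 CPM, below the 13.6 and 8.02 CPM of the other barcodes.

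Markers of heart, vessel, mesenchyme and red cells were low on the macrophage side. The cardiomyocyte list summed to 54.0 CPM (15.4 to 113 by library) against 5822 in the other barcodes, and Myh6 had no UMI. The endothelial list summed to 135 CPM against 269 in the other barcodes, the mesenchymal list to 69.2 against 857, and the erythroid list to 92.3 against 405. Endothelium-marker barcodes (at least 5 UMIs of Cdh5, Pecam1 and Kdr, which are on the list) held 2455 CPM of the endothelial list. T cell and natural killer genes (Cd3e, Cd3d, Nkg7) had no UMI. The lymphoid list summed to 53.5 CPM against 1.74 in the other barcodes, nearly all of it Cd79b, a chain of the B cell receptor. Cd79b, the 1 gene of that list that passed the limit, stood at 50.3 CPM in 43 of 51 barcodes here and 14.2 CPM in 25 of 72 on the megakaryocyte side, against 0.594 CPM in the other barcodes, and was called higher than in them on both sides. In the 12 macrophage-side barcodes under the doublet limit the cardiomyocyte list stood at 95.1 CPM, the endothelial list at 168 CPM and the complement list at 628 CPM, against 491 CPM in all 51. The progenitor list stood at 353 CPM there and 231 in all 51, and the erythroid list at 151 CPM.

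The macrophage-side barcodes differed among themselves along C1qc, which the rule did not use. The split was chosen after the values were seen and is a description, and it followed the rule genes, with a median of 7, 72 and 108 rule UMIs in its 3 groups. No C1qc UMI was counted in 9 barcodes, among them the barcode of library 3 that goes against the name, and the other 42 were divided at their median of 329 CPM. From the barcodes without C1qc through the lower to the upper group, Mrc1 stood at 0, 195 and 499.6 CPM, Cx3cr1 at 104, 202 and 382 CPM, and Maf at 80.6, 169 and 376 CPM. Ctsb stood at 77.5, 152 and 530.5 CPM and Lgmn at 25.3, 55.6 and 251 CPM. All of these were highest where C1qc was highest. Prtn3 ran the other way, at 1228, 347 and 99.6 CPM, as did Mpo, at 134, 36.2 and 0.791 CPM, and Plac8, at 664, 465 and 394 CPM. Without the library 3 barcode, the group without C1qc held 1369.9 CPM of Prtn3, 149.9 of Mpo and 113 of Cx3cr1. The receptor list as a whole summed to 1636, 1786 and 2826 CPM. Spi1 and Tyrobp were nearly level, Spi1 at 387, 336 and 395 CPM and Tyrobp at 692, 567 and 677 CPM. Cd34, a progenitor surface protein, was highest without C1qc, at 128, 33.1 and 30.8 CPM, and Kit, the stem cell factor receptor, was at 6.32, 4.37 and 0 CPM. The S-phase list did not follow this order, at 2767, 2340.4 and 2468 CPM. The 3 sets had median depths of 68288, 82304 and 62282 UMIs. Libraries were spread unevenly over them: the lower group had no barcode from library 3, and the upper group none from library 1 and 7 of 21 from library 5.

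**Figure D3:**
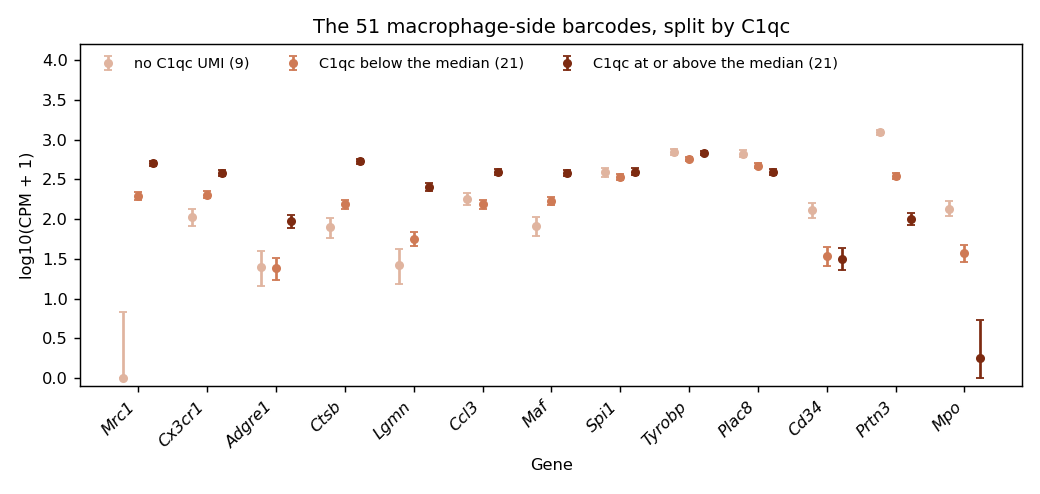
Level of 13 genes, as log10(CPM + 1), in macrophage-side barcodes without a C1qc UMI (9 barcodes), with C1qc below the median of the rest (21) and at or above it (21). Bars are exact 95% Poisson intervals for counting error. Mrc1, Cx3cr1, Ctsb, Lgmn and Maf rise from left to right within each group of 3 points, Prtn3 and Mpo fall, and Spi1 and Tyrobp stay nearly level.

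On the megakaryocyte side the transcription factors of the lineage were high. Of 14 factors, 6 passed the limit on this side alone and 8 on both sides, of which 2 were called higher here and none lower. Gata1, the factor that megakaryocytes and red cells share, ran at 35.8 to 152 CPM over the 6 libraries (median 107) and had 1 UMI in all on the macrophage side. Its partner Zfpm1 (FOG1) stood at 189.8 against 4.86 CPM, Nfe2, needed for platelet release, at 62.7 against 2.86 CPM, and Gfi1b at 89.2 CPM. Fli1, a late megakaryocyte factor that endothelium also makes, was at 367 CPM here, 162 on the macrophage side and 189.8 in endothelium-marker barcodes. Klf1, the red cell factor, whose call was lost in 5 of 24 alternatives, was at 15.8 CPM in 13 of 72 barcodes, against 169 CPM in erythroid barcodes (those with at least 20% globin UMIs). Mef2c had 313 CPM on this side and 592 on the macrophage side.

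Of 12 surface receptors for adhesion and clotting, 9 passed the limit on the megakaryocyte side alone, which fixes their direction. The other 2 past it were Cd9, called higher on this side, and Cd84, not called, at 22.6 CPM here and 24.6 on the macrophage side. Treml1, a receptor kept in platelet granules, ran at 251 to 753 CPM over the 6 libraries (median 454) and had 3 UMIs in all on the macrophage side. Gp5, the remaining chain of the von Willebrand factor receptor, stood at 222 CPM in 63 barcodes, and Gp1ba at 52.9 CPM in 40. Neither had a UMI on the macrophage side. Itgb3, the partner of Itga2b, was at 258 CPM and Clec1b (CLEC-2), the podoplanin receptor, at 627 CPM. Cd9, a tetraspanin, stood at 986 against 96.9 CPM. Gp6, the collagen receptor, was counted in 35 barcodes, at 63.3 CPM, and Itga2, the other collagen receptor, at 7.36 CPM.

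Granule contents were high as well. Of 16 genes, 10 passed the limit on this side alone and 4 on both sides, of which 2 were called higher here. Pf4 (platelet factor 4) ran at 1466 to 16397 CPM over the 6 libraries (median 10422), and 60 of 72 barcodes had a UMI. Library 2 was the lowest. Ppbp, the second chemokine of platelet granules, was at 321 CPM but in only 28 barcodes, with none in library 2. Thrombospondin (Thbs1) stood at 471 against 0.572 CPM, von Willebrand factor (Vwf) at 98.7 CPM with no UMI on the macrophage side, clotting factor F5 at 74.5 CPM and the growth factor Pdgfb at 32.5 against 0.858 CPM. Selp, the adhesion protein of the granule membrane, was close to absent, at 3.82 CPM in 10 barcodes. F13a1, a clotting factor subunit that macrophages make too, had 60.8 CPM here and 106 on the macrophage side. The macrophage side had 47.5 CPM of Pf4 in 30 of 51 barcodes. With every barcode thinned to 5000 UMIs, 17.6% of macrophage-side barcodes had a Pf4 UMI, against 63.9% on the megakaryocyte side and 0.226% of cardiomyocyte-marker barcodes (at least 20 UMIs of Tnnt2, Myh6 and Myh7, median depth 42952 UMIs), which should lack it.

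**Figure D4:**
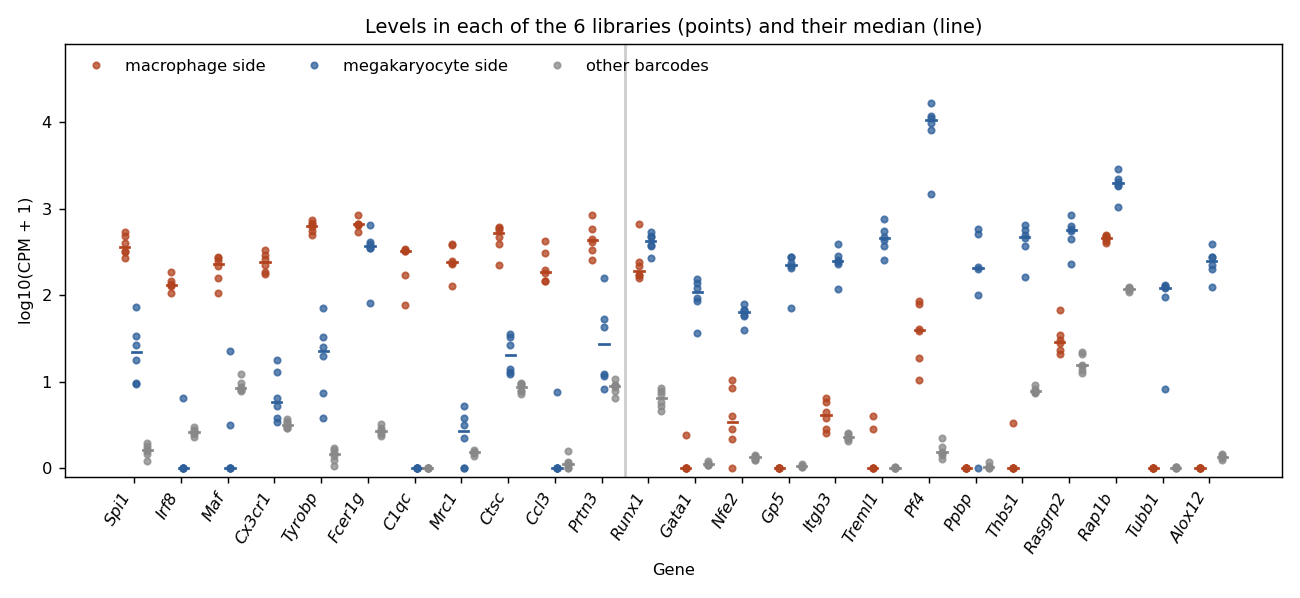
Level of 24 genes, as log10(CPM + 1), in each of the 6 libraries (points) with the median of the libraries (line), for the macrophage side (red), the megakaryocyte side (blue) and the other barcodes (grey). Genes left of the divider come from the macrophage lists and those right of it from the megakaryocyte lists. The red median lies above the blue for Spi1 to Prtn3, and the blue above the red for Gata1 to Alox12. Fcer1g and Runx1 are high on both sides.

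Of 20 signalling genes of the platelet lineage, 13 passed the limit on both sides, of which 7 were called higher on the megakaryocyte side and none lower. A further 6 passed on the megakaryocyte side alone. The thrombin receptor F2rl2 stood at 184 CPM with no UMI on the macrophage side, and its relative F2r, at 2.29 CPM there, ran at 198 to 408 CPM over the libraries of the megakaryocyte side. The integrin switch was high throughout: the small GTPase Rap1b at 2016 CPM, its activator Rasgrp2 at 557 CPM and kindlin-3 (Fermt3) at 742 CPM. The ADP receptors differed: P2ry1 was at 76.6 CPM with no UMI on the macrophage side, while P2ry12 was at 13.6 CPM here and 26.6 there. Lyn, Syk and Plcg2, which act below immune receptors in both lineages, were not called. Lyn stood at 194 and 252 CPM, and Plcg2 at 63.3 and 79.5 CPM, on the megakaryocyte and macrophage side.

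Genes of lipid mediators were called in both directions. Ptgs1 (cyclooxygenase 1) was level, at 90.5 CPM on the megakaryocyte and 90.3 CPM on the macrophage side, and 1.99 CPM in the other barcodes. Tbxas1 (thromboxane synthase) and Alox12 (the platelet lipoxygenase) were higher on the megakaryocyte side, at 133 and 249 CPM. Hpgds (prostaglandin D synthase) and Ltc4s (leukotriene C4 synthase) were higher on the macrophage side, Hpgds at 98.3 against 4.91 CPM and Ltc4s at 70 UMIs in 23 barcodes against 15 in 13. The call of Ltc4s was lost in 6 of 24 alternatives. These 4 were the calls among 8 genes of the list, and each passed the limit on its own side alone.

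Of 18 cytoskeletal genes, 12 passed the limit on both sides, of which 3 were called higher on the megakaryocyte side, and 5 passed there alone. Tubb1, the tubulin of platelets, stood at 104 CPM in 40 barcodes and had no UMI on the macrophage side, and Tuba4a was at 406 against 15.7 CPM. Myl9, a myosin light chain, was at 320.5 CPM, but the other barcodes, which include cardiomyocyte-marker barcodes, held 216. The general regulators Cdc42 and Rhoa differed by less than the limit.

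Progenitor genes were present in part of the megakaryocyte side. Kit stood at 32.5 CPM in 31 barcodes, Myb at 38.2 CPM in 25 and Cd34 at 40.1 CPM in 22. Adgrg1 was spread wider, at 107 CPM in 62 barcodes. Kit and Adgrg1 were the 2 of 12 progenitor genes called higher than on the macrophage side, and passed the limit on this side alone. The list summed to 762 CPM over all 72, below the 1363 of the other barcodes, and this level was not stable. It was 418 CPM without the 6 barcodes that go against the name, 282 in members with a Gp1bb UMI, 1393 in the 34 barcodes under the doublet limit and 2870 with a minimum of 3 rule UMIs. Most of its UMIs were of Cdkn1c (464 CPM), of which 1 barcode held 44.6%.

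Markers of other cells were unevenly spread over the megakaryocyte side. Of 12 erythroid genes, 6 passed the limit on this side alone and Hba-x and Hbb-y on both, and all of these were called higher here. The list summed to 3059 CPM (320.4 to 5783 by library). The call of Hba-x was lost in 8 of 24 alternatives and that of Hba-a2 in 5. Without the 7 barcodes with at least 1% globin UMIs the list summed to 434 CPM, and 1 barcode held 59.4% of the Hba-x UMIs. The other barcodes held 405 CPM of the list, with the 32 among them that had at least 1% globin kept in. Hba-a1 and Hba-a2 are near-identical, as are Hbb-bs and Hbb-bt, so reads may be split between them. Epor, the erythropoietin receptor, was in contrast counted in 57 of 72 barcodes, at 49.4 CPM. Of 10 endothelial genes, 8 passed the limit on this side alone. Called higher than on the macrophage side were 5: Pecam1, Kdr, Tek, Esam and Plvap. The call of Tek was lost in 6 of 24 alternatives. The list summed to 674 CPM, and to 403 without the 6 barcodes that go against the name. Both levels were above the 269 CPM of the other barcodes. Endothelium-marker barcodes, which were chosen by genes of this list, held 2455 CPM. Pecam1 and Esam, which platelets also carry, were in 58 and 51 barcodes, and Cdh5 and Emcn, which were not called, in 9 and 7. The cardiomyocyte list summed to 301 CPM (45.4 to 742 by library), with 89.7% of its Myl7 in 1 barcode. The part of these markers in the calls was not tested. In the 34 barcodes under the doublet limit the endothelial list stood at 1196 CPM (against 674 in all 72), the cardiomyocyte list at 572 CPM, the mesenchymal list at 218 CPM (against 111), the monocyte and granulocyte list at 54.5 CPM (against 189.5) and the granule list at 17920 CPM (against 12387).

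The 72 megakaryocyte-side barcodes spanned a wide range of Pf4, from no UMI in 12 barcodes to 104474 CPM. Pf4 was no part of the rule, but the split along it was chosen after the values were seen and followed the rule genes, with a median of 7.5, 14 and 102.5 rule UMIs in its 3 groups. The 60 barcodes with Pf4 were divided at their median of 7011 CPM. From no Pf4 through the lower to the upper group, the adhesion list summed to 565, 1029 and 7794 CPM, the signalling list to 1913, 3720.0 and 12350 CPM and the cytoskeletal list to 2182, 2699.8 and 10654 CPM. Most of the increase came between the lower and the upper group. Ppbp made the sharpest step, at 0, 2.84 and 1086 CPM. Gp1ba stood at 3.63, 7.38 and 165 CPM, Gp6 at 6.06, 7.38 and 198 CPM, F5 at 3.63, 7.94 and 237 CPM and Tubb1 at 12.1, 21.6 and 309 CPM. Gata1 stood at 42.4, 79.4 and 204 CPM. Over the 72 barcodes, Spearman's rho with Pf4 was 0.83 for the adhesion list, 0.85 for the cytoskeletal list and 0.41 for the transcription factors. These values share libraries and depth, and Pf4 itself went down with depth (rho -0.58 with UMIs per barcode).

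Several progenitor genes were lower with more Pf4, and the cell cycle lists were lower in the upper group. Myb, a progenitor factor, stood at 70.3, 46.5 and 0 CPM and Kit at 56.9, 38.6 and 3.71 CPM in the same order. Mpo was at 177, 15.9 and 0 CPM and Spi1 at 84.8, 28.4 and 2.78 CPM. Runx1 stood at 334, 478 and 456 CPM and Adgrg1, another progenitor gene, at 104, 121 and 86.2 CPM, which was nearly level. The S-phase list summed to 2324, 2446 and 729 CPM and the G2/M list to 2417, 3422 and 1040.1 CPM. In the upper group, 21 of 30 barcodes had under 500 CPM of the 20 S-phase genes, against 3 of 30 in the lower group and 1 of 12 without Pf4. Both cycle lists were under 500 CPM in 23 megakaryocyte-side barcodes, in no macrophage-side barcode and in 1131 of the 34373 others. The upper group was also shallower, with a median of 33371 UMIs against 57241 and 72346. The barcodes without Pf4 were mixed: they included the 3 with Itga2b alone, the 2 with monocyte and granulocyte genes, and 1 shallow barcode of library 6 with 15312 UMIs that held 236 UMIs of the adhesion list and 12.1% globin. Without the 5 of them that go against the name, the other 7 held 101 CPM of Myb, 72.4 of Kit, 152 of Mpo, 31.4 of Spi1 and 444 of Runx1, so that Spi1 was near its level in the lower group. The upper group drew 2, 0, 6, 9, 9 and 4 barcodes from libraries 1 to 6, and library 2 gave none.

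**Figure D5:**
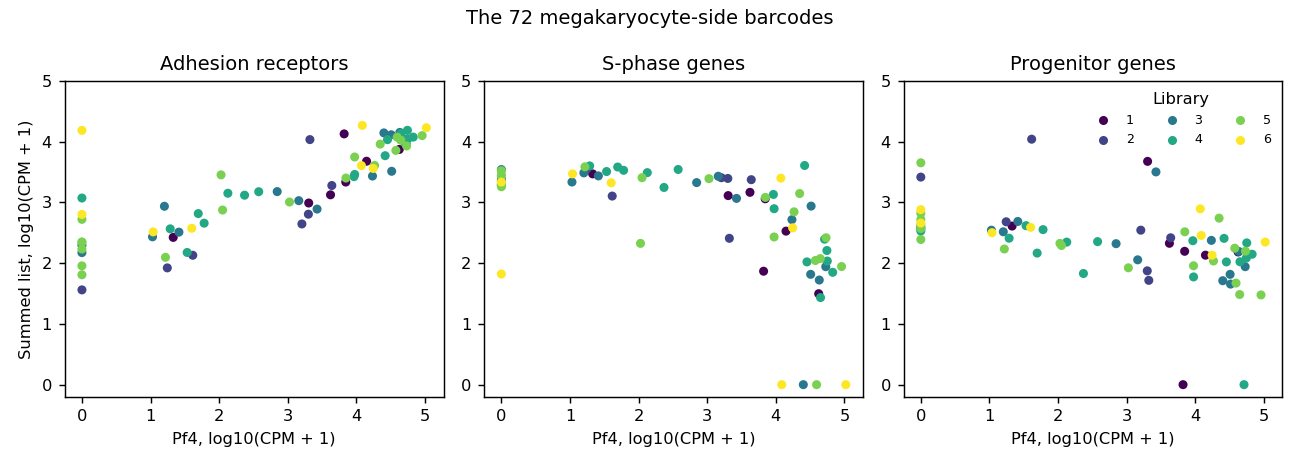
The 72 megakaryocyte-side barcodes by Pf4 (horizontal, log10(CPM + 1)) and by the summed adhesion, S-phase and progenitor lists (vertical, log10(CPM + 1)), coloured by library. Adhesion genes are high where Pf4 is high, and 1 barcode without Pf4 stands apart at the upper left. S-phase genes are level at low Pf4 and fall away in the barcodes with the most Pf4.

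Of 20 S-phase and 20 G2/M genes none was called between the sides or against the other barcodes. The S-phase list summed to 2464 CPM on the macrophage side (2002 to 2670.4 by library), 1913 on the megakaryocyte side (1289 to 2201) and 2142 in the other barcodes. The library ranges of the 2 sides overlapped. Without the barcodes above the doublet limit the list stood at 2947 and 1447 CPM on the macrophage and megakaryocyte side. All 51 macrophage-side barcodes had at least 10 UMIs of each cycle list, and 49 of 72 megakaryocyte-side barcodes had as many of the S-phase list.

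Many genes common to blood cells were high on both sides. All 14 members of that list were called higher on the macrophage side than in the other barcodes, and 10 on the megakaryocyte side, where 1, Lsp1, was called lower (4.91 against 23.0 CPM). Coro1a, an actin regulator, stood at 946 and 325 CPM on the macrophage and megakaryocyte side, Arhgdib at 539 and 427 CPM, and Vav1, a signalling adaptor, at 41.2 and 34.6 CPM. Between the sides, 11 of 14 passed the limit on both. Of these, 3 (Lcp1, Cd52 and Tyrobp) were called higher on the macrophage side and 1 (Fermt3) on the megakaryocyte side. Over all genes past the limit on both sides, the shares called were 0.843% and 1.62%. The other 3 (Ptprc, Cd53 and Lsp1) passed on the macrophage side alone, which fixes their direction, and were called there.

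Outside the lists, genes are named in the order of their ratio, with a set at no UMI counted as 3 UMIs. A ratio to such a set is a lower bound, so its place against genes with 1 UMI on the far side carries no meaning, and others with no UMI there, such as Cybb, fell outside the 10. Higher on the macrophage than on the megakaryocyte side were Aif1 (Iba1, an actin-bundling protein of macrophages, 107 against 0.273 CPM), Ms4a6b, Fcrls, Ly86, Rbm47, Lpl, Ighm, Abcd2, Ms4a6d and Slco2b1. Ly86 (MD-1) stood at 176 CPM and lipoprotein lipase (Lpl) at 266 CPM in 49 of 51 barcodes. Ighm, the immunoglobulin heavy chain, was at 82.0 CPM in 40 barcodes. Cd79b was described above, and its partner Cd79a was at 0.858 CPM. In the other direction, among others, came Rab27b, which acts in granule release (605 against 0.572 CPM), Sardh, Ctla2a, Mfsd2b, Gramd1c, Cited4, Cd59a, Trpc6 and F10. Clotting factor X (F10) was at 119.7 CPM in 59 of 72 barcodes. Taken by their ratio over the other barcodes were Clec4a2, Ccr1, Tifab, Bcl2a1b, Aif1, Ighm, Ifi207, Cybb, Cd86 and Nlrp3 for the macrophage side. Cybb, the catalytic chain of the phagocyte oxidase, stood at 53.5 CPM, and Nlrp3, an inflammasome sensor, at 29.2 CPM in 39 barcodes. For the megakaryocyte side they were Tnfsf14, Ly6g6f, Slc14a1, Lcp2, Il10ra, AI463229, Tmem40, Slc35d3, Ifi47 and Trem3. Slc35d3, needed for platelet dense granules, stood at 89.2 CPM and Ly6g6f, a platelet surface protein, at 91.6 CPM.

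Factors that feed these lineages were read in the other barcodes. There Csf1, a ligand of Csf1r, stood at 3.71 CPM and Il34, its second ligand, at 0.377 CPM. Kitl, the ligand of Kit, was at 54.0 CPM and Cxcl12 at 70.4 CPM. On a list of 12 secreted growth and matrix factors, calls against the other barcodes ran in both directions. For the macrophage side 9 passed the limit, of which 7 were called lower and 1 higher. For the megakaryocyte side 10 passed, of which 5 were called lower and 2 higher. Over all genes past the limit, 14.3% were called lower and 5.27% higher on the macrophage side. On the megakaryocyte side these shares were 11% and 5.69%. Tgfb1 ran at 301 to 679.6 CPM over the 6 libraries (median 541) on the megakaryocyte side and 84.9 to 177 on the macrophage side, with 15.6 CPM in the other barcodes. Its libraries did not overlap between the sides.

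Because the study concerned maternal glucose, genes of glucose use were read in both sides without regard to treatment. Of 16 that passed the limit, 15 did so on both sides, and none of these was called between the sides. Hk1, the first enzyme of glycolysis, passed on the megakaryocyte side alone, which fixes its direction. It was called there, at 79.9 CPM on the megakaryocyte and 8.58 CPM on the macrophage side. Its relative Hk2 stood at 21.5 and 65.5 CPM. The glucose transporter Slc2a3, known in platelets, was the 1 gene of the list higher than in the other barcodes, at 196 CPM on the megakaryocyte side against 33.0 CPM. Slc2a1 was at 67.1 and 62.6 CPM and Txnip, which responds to glucose, at 42.3 and 84.9 CPM on the megakaryocyte and macrophage side.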

How the data were processed

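Single-cell RNA libraries of 3 vehicle and 3 STZ samples were read from 1 joint matrix. The deposited values are raw UMI counts per gene and barcode (whole numbers in the file). Per the submitters' processing notes, CASAVA 1.8, Cell Ranger 5.0.0 and Seurat 4 were used with the mm10 build. No label or header states their settings. Library descriptions name a chromatin assay, whereas titles and library source name RNA. The 6 barcode suffixes could not be tied to samples, so vehicle and STZ were not compared. The sides were chosen from the counts on which they are compared, so every difference is a ratio with no test.

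Members were found by the stated limits on genes, mitochondrial and globin UMIs and rule genes. The members and lists were chosen with earlier results of these data known. UMIs were summed per set and scaled to CPM. Intervals are exact Poisson (levels) and Clopper-Pearson (shares) at 95%, and cover counting error only. A gene passed with at least 10 CPM in either set and was called at 4-fold, a set at 0 being set to 3 UMIs. Named genes are the rule genes, up to 6 members of each list with the highest level on its side plus defining members at 0, and, outside the lists, the 10 called genes with at least 50 UMIs and the largest ratios, leaving out predicted genes. Members named beyond these were chosen after their values were seen. Some genes that this rule names are not reported here. Doublet scores followed the Scrublet method (2000 genes, 30 components), and doublets were kept. Promoters came from RefSeq (GRCm38.p6). Alternatives changed the limits, the fold, the level, the depth and the libraries. Python 3.11.15, NumPy 2.4.6, SciPy 1.17.1, pandas 2.3.3, scikit-learn 1.9.0 and matplotlib 3.10.9 were used.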

Additional observations from a re-analysis of the deposited data

Results flagged for a closer look

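In 9 of 69 sets of 6 library values, 1 library stood apart from the other 5 by more than Dixon's 95% critical value for 6 values, which chance does in about 1 in 20 sets. On the macrophage side, 5 of them were in library 1, which has 3 barcodes on that side. Its share of macrophage-side barcodes was 0.0486%, against 0.137 to 0.188% in the others. Its G2/M list summed to 4627 CPM against 2354 to 2897 and its endothelial list to 278 CPM against 72 to 140.0. Its list of megakaryocyte transcription factors summed to 2280 CPM against 1060 to 1424. The mast cell and basophil list summed to 9.58 CPM there against 0 to 2.35, and this value rested on 2 UMIs of 1 barcode. The macrophage receptor list was highest in library 3, at 2736 CPM against 1777 to 2133, and the lipid mediator list lowest in library 6, at 421 CPM against 532 to 564.

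On the megakaryocyte side, the cardiomyocyte list stood at 742 CPM in library 3 against 45.4 to 305 in the others. In library 3, 1 barcode held 496 UMIs of that list, which is 44.9% of those of the whole side. The mesenchymal list stood at 504 CPM in library 2 against 38.8 to 88.6. In library 2, 1 barcode held 54 UMIs of that list, and another held 109, or 26.8% of those of the whole side.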

How the results depend on the processing

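No paired analysis was possible because no column carries the replicate numbers of the samples, so the planned STZ against vehicle fits were not run. The sides occur together in each of the 6 libraries, but a paired fit between them was not run, since they were chosen from the counts compared. They were compared within libraries by direction only: requiring it in the 5 libraries with at least 5 barcodes of each side gave 314 and 451 genes. The number of barcodes depended most on the rule and on doublet scores. A minimum of 3 rule UMIs gave 125 megakaryocyte-side barcodes, leaving out the highest doublet scores gave 12 macrophage-side and 34 megakaryocyte-side barcodes, and leaving out barcode sequences found in several libraries gave 30 macrophage-side barcodes. In the last 2 settings no library had 10 barcodes on both sides, so no direction could be required, and without the highest doublet scores 495 genes were higher on the macrophage side. The counts of 326 and 515 genes became 727 and 1041 at a fold of 2, 125 and 226 at 50 CPM or more, and 530 and 841 with no minimum level. Of such counts under the alternatives, 111 stayed within 1.5 times and 11 did not. Of 1240 list levels, 58 moved by over 1.5 times, 16 of them without the highest doublet scores and 15 with 3 rule UMIs. By a narrower measure, 504 of the 1240 left the counting interval of the level given. The granule list on the megakaryocyte side ran from 6810 to 18440 CPM. Of the library shares, 11 left their interval and 109 did not. Leaving out each library in turn, 303 to 368 genes were higher on the macrophage side and 511 to 555 on the megakaryocyte side. Of 168 named genes called between the sides, 97 were called in every setting run. Named values changed sign in 4 cases, and the cause was not tested: the log2 ratio of the macrophage side over the other barcodes was 0.0090 for Tubb3 with 3 rule UMIs, and 0.66 for Hba-a1 and 0.52 for Hba-x without the highest doublet scores, and that of the macrophage over the megakaryocyte side was -0.50 for Tnf with barcodes thinned to 5000 UMIs. Thinning gave no value for 11 pairs of gene and comparison. The alternatives without members that go against their label, without members of 1% globin or more, with a C1qa, C1qb or Gp1bb UMI, and with direction read over libraries of at least 5 barcodes were chosen after seeing the data. Keeping barcodes on both sides changed nothing, since there were none. Few barcodes per library limit every level given by library.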

Other observations

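Barcodes with myeloid or megakaryocyte genes outside the rule were also counted. Among barcodes within the limits and on neither side, 60 had at least 5 UMIs of the myeloid genes Fcer1g, Tyrobp and Laptm5, spread as 7, 14, 5, 12, 13 and 9 over libraries 1 to 6. They held 606 CPM of Prtn3, 241 CPM of Mpo and 5.79 CPM of Csf1r, and also 179 CPM of the endothelial gene Cdh5. A further count of barcodes with at least 5 UMIs of Pf4, Treml1 and Rgs18 found 29, of which 24 were among the 60. Those 24 held 1471 CPM of Prtn3, 597 CPM of Mpo, 329 CPM of Spi1, 174 CPM of Cd34, 59.7 CPM of Kit and 0.649 CPM of Cdh5. Their Pf4 was 1.95 CPM and their C1qb 0. The other 36 of the 60, of which 14 were in library 2, held 292 CPM of Cdh5, 230.0 of Cd34, 57.6 of Prtn3 and 17.3 of Spi1. This level of Spi1 was above that of the other barcodes given earlier. Sums over the 36 cannot tell endothelial barcodes from a mixture with myeloid ones, so no name is given to them. These sets were chosen after their values were seen.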
